A study of Mus musculus with 6 samples.

Results

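AMP-activated protein kinase (AMPK) is the energy sensor of the cell, and the sirtuins are deacylases that use NAD+ as a co-substrate. The transcripts examined here were those of 9 genes: the AMPK subunits Prkaa1, Prkaa2, Prkab1, Prkab2, Prkag1 and Prkag2, the upstream kinase Stk11, and the sirtuins Sirt1 and Sirt3. They were found by symbol, through GENCODE release M21, among the 54532 gene identifiers of the deposited expression table, and all 9 were present. Its values are FPKM, fragments per kilobase of exon after scaling between libraries. Left ventricular myocardium was taken from male C57BL/6 mice that entered the study at 6 to 8 weeks of age. Chow mice (n = 3) had standard chow and plain drinking water. HFpEF mice (n = 3), a model of heart failure with preserved ejection fraction, were fed a high-fat diet (60% of kcal) together with the nitric oxide synthase inhibitor L-NAME at 0.5 g/L in their water for 12 weeks. Each library came from a different mouse, and no group with the diet alone or L-NAME alone was analysed here.

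AMPK is a heterotrimer. An α subunit (Prkaa1 or Prkaa2) carries the kinase domain, a β subunit (Prkab1 or Prkab2) holds the complex together and binds glycogen, and a γ subunit (Prkag1, Prkag2 or Prkag3) binds AMP, ADP and ATP. The kinase LKB1, encoded by Stk11, phosphorylates the activation loop of the α subunit. In the heart AMPK is known for promoting glucose uptake and fatty acid oxidation and for restraining protein synthesis when energy runs low. Sirt1 acts mainly in the nucleus and cytosol on transcription factors and co-activators, and Sirt3 is the main deacetylase of the mitochondrial matrix. Transcript levels say nothing of the phosphorylation or acetylation that these enzymes control.

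The libraries held 13076772 to 15574914 reads in Chow and 13461735 to 16027084 in HFpEF, recovered from the steps of the FPKM values. HFpEF replicate 3 stood apart. Mitochondrially encoded genes took 7.17% of its reads, against 20.1% and 22.6% in the other HFpEF libraries and 24.0% to 26.0% in Chow. The 16 ventricular cardiomyocyte markers were all expressed, and their summed FPKM was 13375 in HFpEF replicate 3, 19914 and 20793 in HFpEF replicates 1 and 2, and 28488 to 30824 in Chow. All 16 were lower in every HFpEF library than in every Chow library. The 10 fibroblast and matrix genes summed to 5875 FPKM in HFpEF replicate 3, 550 and 600 in HFpEF replicates 1 and 2, and 274 to 322 in Chow. Atrial transcripts also differed between libraries. Myl7, the atrial myosin light chain, had an FPKM of 3.79, 0.288 and 236 across Chow replicates 1 to 3, and 969, 2064 and 8.56 across HFpEF replicates 1 to 3. The summed FPKM of 10 atrial genes was 45.7, 49.2 and 595 in Chow and 2708, 4085 and 84.3 in HFpEF, in the same order. HFpEF replicates 1 and 2, and to a lesser degree Chow replicate 3, thus held more atrial transcripts than the other libraries. The authors name left ventricular myocardium as the tissue, while the sample titles give it as heart. In such bulk tissue, fewer cells of a type and less RNA per cell cannot be told apart. The values of the 9 genes are given with and without HFpEF replicate 3, but leaving it out keeps the 2 HFpEF libraries with the most atrial transcripts.

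With all libraries, no difference between HFpEF and Chow hearts in the 9 transcripts was large enough against the spread between mice to pass the test, yet several lay far from Chow in some of the HFpEF hearts. Prkag2 was at 211% and 164% of the Chow mean in HFpEF replicates 1 and 2 and at 78.9% in replicate 3. Prkaa2, Prkab1 and Sirt3 were at 47.3% to 50.5% of their Chow means in replicate 3 and at 75.2% to 97.7% in replicates 1 and 2. Sirt1 and Prkaa1 stayed within 0.35 of the Chow mean on the log2 scale in all 3 HFpEF libraries.

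Differences between the groups were tested by limma on log2(FPKM + 0.1) over 14225 genes that reached an FPKM of 0.5 in 3 or more libraries, all 9 genes included. Of the 9, 0 were DEGs, defined here by a Benjamini-Hochberg adjusted p below 0.05 and a log2 fold change of 2 or more in size, against 0.0562% of all tested genes. With no fold threshold, 0 had an adjusted p under 0.05, against 0.0984% of all tested genes. Even at an unadjusted p under 0.05 the count was 0, where 10.2% of all tested genes were higher and 13.1% lower. Limma-voom on the recovered reads also gave 0 at an adjusted p, and 2 (Prkab2 and Sirt3, lower) at an unadjusted p under 0.05, where 13.5% of all genes in that fit were lower. The HFpEF and Chow libraries did not overlap for Sirt1 (higher, against 15.5% of all tested genes) and for Prkaa2, Prkab2, Prkag1, Stk11 and Sirt3 (lower, against 19.8%). The median log2 fold change of the 9 genes was −0.26, and −0.06 without HFpEF replicate 3. Over all tested genes it was −0.01 in each fit. Without HFpEF replicate 3, 1 gene, Prkag2, had an adjusted p under 0.05 and was higher, where 2.85% of all tested genes were called higher and 5.36% lower.

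**Figure D1:**
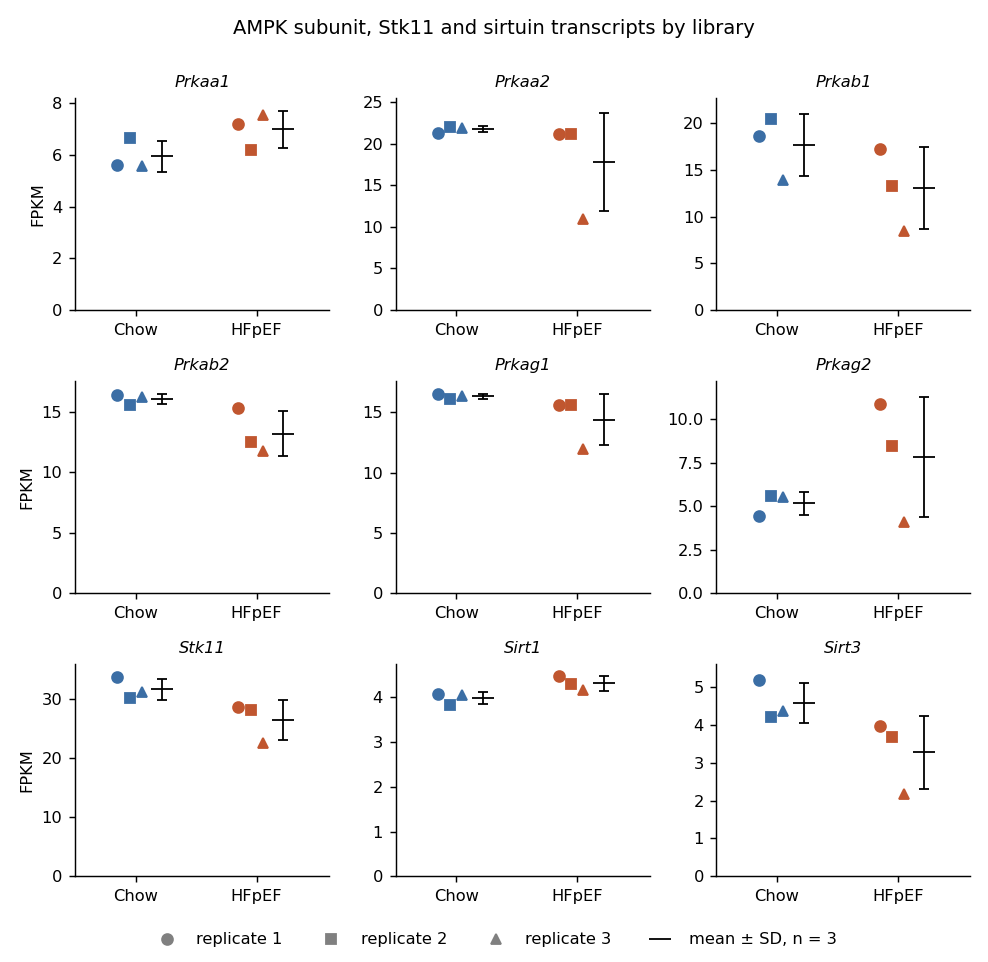
FPKM of each of the 9 transcripts (vertical axis, linear from 0) in the 3 Chow and 3 HFpEF libraries, with the marker shape giving the replicate and the black bar the mean ± SD (n = 3). Prkag2 is at 8.47 and 10.9 in HFpEF replicates 2 and 1 and at 4.07 in replicate 3, and Prkaa2 lies far below Chow in HFpEF replicate 3, at 11.0.

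Of the catalytic subunits, Prkaa2 (α2, chr4:105029874-105109890, minus strand of GRCm38), the form known to predominate in striated muscle, was also the more abundant here. Its FPKM was 21.3, 22.0 and 21.9 across Chow replicates 1 to 3, and 21.2, 21.2 and 11.0 across HFpEF replicates 1 to 3. HFpEF replicates 1 and 2 thus lay just under the narrow Chow range, and replicate 3 far below it. Chow averaged 21.7 ± 0.362 and HFpEF 17.8 ± 5.89 (SD, n = 3 each). Between groups the log2 fold change came to −0.35 (standard error, SE, 0.26, adjusted p = 0.431), and −0.03 (standard error 0.06, adjusted p = 0.780) without HFpEF replicate 3.

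Prkaa1 (α1, chr15:5143861-5181899, plus strand), the form found in most tissues, had an FPKM of 5.62, 6.64 and 5.59 in Chow and of 7.22, 6.17 and 7.56 in HFpEF, in replicate order. HFpEF replicates 1 and 3 were above every Chow library, while replicate 2 fell within the Chow range. Limma gave a log2 fold change of 0.23 (SE 0.13, adjusted p = 0.315), and 0.17 (adjusted p = 0.444) without HFpEF replicate 3. It was thus HFpEF replicate 3, with the lowest Prkaa2, that had the highest Prkaa1.

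The β subunit transcripts were of similar abundance. Prkab1 (β1, chr5:116013586-116024508, minus strand) had an FPKM of 18.6, 20.5 and 13.9 across Chow replicates 1 to 3, the widest relative spread of the 9 genes in that group, and of 17.3, 13.3 and 8.51 across HFpEF replicates 1 to 3. HFpEF replicate 1 lay inside the Chow range. Prkab2 (β2, chr3:97658193-97673812, plus strand), the form enriched in muscle, was tighter, at 16.4, 15.6 and 16.2 in Chow and 15.3, 12.5 and 11.7 in HFpEF. All 3 HFpEF libraries were below Chow, replicate 1 by no more than the SD of Chow, 0.410. The log2 fold change was −0.48 for Prkab1 (standard error 0.28, adjusted p = 0.328 from limma) and −0.29 for Prkab2 (standard error 0.12, adjusted p = 0.216). Without HFpEF replicate 3 these were −0.20 and −0.21.

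Among the γ subunits, which sense adenine nucleotides, Prkag1 (γ1, chr15:98812797-98831521, minus strand) was the main form. Its FPKM was 16.5, 16.1 and 16.4 in Chow and 15.6, 15.6 and 11.9 in HFpEF, in replicate order. As for Prkaa2, only HFpEF replicate 3 stood far from the rest. Between groups the log2 fold change came to −0.19 (SE 0.13, adjusted p = 0.389) and −0.06 without HFpEF replicate 3. In the annotation, 43.7% of the exon bases of Prkag1 are shared with B130046B21Rik on the other strand. The strandedness of the counting is not given in the sources used here, so reads over that stretch cannot be assigned to one gene with certainty.

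Prkag2 (γ2), whose inherited mutations are known for cardiac glycogen storage and pre-excitation, had the largest relative differences between mice. It had an FPKM of 4.42, 5.56 and 5.50 across Chow replicates 1 to 3, from 409, 424 and 433 reads. Across HFpEF replicates 1 to 3 it had 10.9, 8.47 and 4.07, from 982, 934 and 512 reads. HFpEF replicates 1 and 2 were thus at 211% and 164% of the Chow mean, above every Chow library, and replicate 3 was at 78.9%, below every Chow library. Chow averaged 5.16 ± 0.645 and HFpEF 7.81 ± 3.45 (SD, n = 3 each). Limma gave a log2 fold change of 0.49 (SE 0.35, adjusted p = 0.416; exact permutation test, two-sided, p = 0.4). Without HFpEF replicate 3 it was 0.89 (standard error 0.16, adjusted p = 0.0288 from limma), in a set of 5 libraries from which the discordant one had been taken, and the other 2 HFpEF libraries alone then carry the difference. Without HFpEF replicate 1 it was 0.19 (limma adjusted p = 0.726). The 2 libraries in which Prkag2 was high were those with the most atrial transcripts. Chow replicate 3, next in the summed FPKM of the atrial genes (595, against 45.7 and 49.2 in Chow replicates 1 and 2), did not have more Prkag2. Its value of 5.50 lay between those of Chow replicates 1 and 2. Relative to the Chow mean, the median log2 level of the 10 atrial genes was 5.56, 3.92 and 0.35 across HFpEF replicates 1 to 3, beside 1.07, 0.71 and −0.33 for Prkag2. The order of replicates 1 and 2 depended on the summary. By summed FPKM replicate 2 was above replicate 1 (4085 against 2708), the reverse of Prkag2. Single atrial genes such as Myl7 (2064 against 969) were also higher in replicate 2, while Bmp10, Dkk3 and Nr2f2 were higher in replicate 1. The median of a list of adipocyte genes, at 4.43, 4.57 and 2.86, was also higher in replicates 1 and 2 than in replicate 3. The summed FPKM of that list was 501, 468 and 315 there, each below the 505 to 539 of Chow. The part of atrial or adipose tissue in the Prkag2 difference was not tested.

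**Figure D2:**
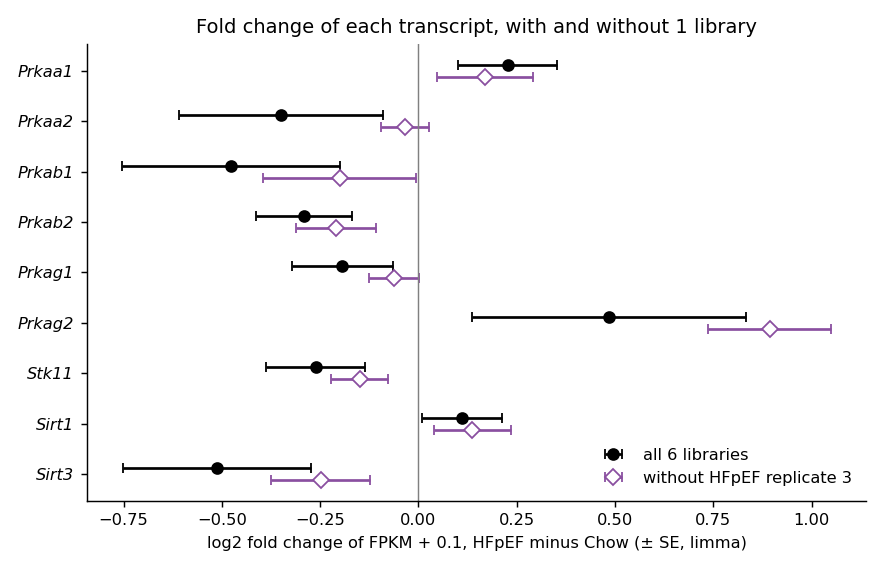
Log2 fold change of FPKM + 0.1, HFpEF minus Chow (horizontal axis, limma estimate ± standard error), of each transcript with all 6 libraries (black) and without HFpEF replicate 3 (open diamonds). Leaving out that library brings Prkaa2 from −0.35 to −0.03 and Prkag2 from 0.49 to 0.89, the only value past an adjusted p of 0.05.

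Prkag2 lies on the minus strand of chromosome 5 of GRCm38 from 24862744 to 25100642, with 6480 bases of exon in all. RefSeq places 3 transcription starts in it, up to 192133 bases apart, and the deposited values are summed over the whole gene, so that they do not tell which start the reads of HFpEF replicates 1 and 2 came from. The 250 bases before each start are shown because this was the only one of the 9 genes called without HFpEF replicate 3, 5′ to 3′ on the strand of the gene (RefSeq, GRCm38.p6). Capitals mark matches on either strand to a GC box with the letters GGGCGG, the CCAAT box, an E-box with the letters CACGTG, a nuclear receptor half-site with the letters AAGGTCA, and a TATA box with the letters TATAAA.
Start site 1, chr5:25100643-25100892: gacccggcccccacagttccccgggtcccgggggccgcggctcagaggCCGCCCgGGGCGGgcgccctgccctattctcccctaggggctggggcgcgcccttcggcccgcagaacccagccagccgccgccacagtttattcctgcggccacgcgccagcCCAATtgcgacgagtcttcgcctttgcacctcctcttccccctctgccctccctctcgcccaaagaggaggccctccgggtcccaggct
Start site 2, chr5:24995754-24996003: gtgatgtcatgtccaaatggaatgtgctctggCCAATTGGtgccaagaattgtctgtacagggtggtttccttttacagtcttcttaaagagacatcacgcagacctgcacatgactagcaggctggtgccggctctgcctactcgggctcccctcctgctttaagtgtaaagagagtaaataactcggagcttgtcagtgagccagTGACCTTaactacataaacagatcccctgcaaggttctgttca
Start site 3, chr5:24908510-24908759: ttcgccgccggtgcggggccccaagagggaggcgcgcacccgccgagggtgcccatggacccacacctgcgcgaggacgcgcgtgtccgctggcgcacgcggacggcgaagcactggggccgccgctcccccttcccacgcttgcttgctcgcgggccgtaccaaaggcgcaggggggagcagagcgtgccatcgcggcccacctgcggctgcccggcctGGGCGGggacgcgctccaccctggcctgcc
The windows of start sites 1 and 3 were rich in CG dinucleotides, with 23 and 34 of them and a GC content of 73.2% and 77.2%, and that of start site 2 held 4 with 48.4%. The median over 32851 such windows was 6. Start site 1 held 2 GC boxes on opposite strands and 1 CCAAT box, and start site 3 held 1 GC box. Start site 2 held 2 overlapping CCAAT boxes on opposite strands and 1 half-site. A GC box was found in 32.7% of all windows, a CCAAT box in 33.8% and a half-site in 4.08%. The E-box letters (in 6.02% of all windows) and the TATA letters (in 12.4%) were in none of the 3 windows. These are matches of letters, not measured binding. Of the exon bases of Prkag2, 14.5% are shared with the antisense genes Prkag2os1 and Prkag2os2.

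Stk11 (chr10:80115803-80130682, plus strand), which encodes LKB1, was the most abundant of the 9 transcripts. Its FPKM was 33.6, 30.1 and 31.1 across Chow replicates 1 to 3, and 28.7, 28.1 and 22.6 across HFpEF replicates 1 to 3. Every HFpEF library was below every Chow library, and the Chow SD was 1.80. Between groups the log2 fold change came to −0.26 (SE 0.13, adjusted p = 0.263) and −0.15 without HFpEF replicate 3.

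Of the sirtuins, Sirt1 (chr10:63319005-63381704, minus strand) had the smallest difference of all 9 genes with all 6 libraries. Prkaa2 and Prkag1 were closer to Chow (−0.03 and −0.06) without HFpEF replicate 3. Its FPKM was 4.07, 3.81 and 4.05 in Chow and 4.47, 4.28 and 4.15 in HFpEF, in replicate order. The groups did not overlap, but the gap between HFpEF replicate 3 and the top Chow value was smaller than the SD of Chow, 0.143. Limma gave a log2 fold change of 0.11 (SE 0.10, adjusted p = 0.522), and 0.14 (adjusted p = 0.437) without HFpEF replicate 3. With 239 to 429 reads per library, counting alone gives a relative error of up to 6.47%, so that a difference of this size is near the limit of the depth.

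Sirt3 (chr7:140863666-140882309, minus strand) had an FPKM of 5.18, 4.20 and 4.36 in Chow and of 3.95, 3.68 and 2.17 in HFpEF, in replicate order. Each HFpEF library was below each Chow library, and replicate 3 was at 47.3% of the Chow mean. Between groups the log2 fold change came to −0.51 (SE 0.24, adjusted p = 0.250), the most negative of the 9, and −0.25 (adjusted p = 0.285) without HFpEF replicate 3. Of its exon bases, 12.7% are shared with Psmd13 (711 to 1105 reads) and Ric8a (281 to 692 reads) on the other strand. Sirt3 itself had 251 to 442 reads, so that reads from these neighbours could weigh on its value if strand was not used.

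In FPKM, which is per length, the order of the Chow means was Stk11, Prkaa2, Prkab1, Prkag1, Prkab2, Prkaa1, Prkag2, Sirt3 and Sirt1, from 31.6 to 3.97. The Chow ranges overlapped between the neighbours Prkab1 and Prkag1, Prkag1 and Prkab2, and Prkag2 and Sirt3. Within a library, Prkag1 was above Prkab2 in all 6. In HFpEF the order was Stk11, Prkaa2, Prkag1, Prkab2, Prkab1, Prkag2, Prkaa1, Sirt1 and Sirt3, from 26.5 to 3.27. From Prkaa2 down to Prkaa1 each neighbour overlapped the next. The values in FPKM by library show how the 9 levels are ordered and how far each group spreads.

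Whether the mix of subunit isoforms differed was examined by the ratio of FPKM within a library, which does not depend on the scaling between libraries. The ratio of Prkag2 to Prkag1 was 0.267, 0.345 and 0.336 across Chow replicates 1 to 3, and 0.697, 0.541 and 0.341 across HFpEF replicates 1 to 3. HFpEF replicates 1 and 2 were above the Chow range and replicate 3 within it. The mean difference on the log2 scale was 0.69, and 0.97 without HFpEF replicate 3. In share, Prkag2 made up 41.1%, 35.1% and 25.4% of the summed FPKM of Prkag1 and Prkag2 in the HFpEF libraries, against 21.1% to 25.6% in Chow. The summed FPKM of the atrial genes was highest in the same 2 HFpEF libraries, and their part in this ratio was not tested either. Chow replicate 3, next in that sum, had a ratio between those of Chow replicates 1 and 2.

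The ratio of Prkaa2 to Prkaa1 was 3.79, 3.31 and 3.91 in Chow and 2.93, 3.44 and 1.45 in HFpEF, in replicate order. HFpEF replicate 3 held much less of the muscle form relative to the widespread one than the other 5 libraries. The mean difference was −0.58 on the log2 scale, and −0.21 without HFpEF replicate 3. The ratio of Prkab2 to Prkab1 lay between 0.762 and 1.16 in Chow and between 0.887 and 1.38 in HFpEF, and the groups overlapped. Its mean difference was 0.19, and −0.01 without HFpEF replicate 3. By an exact two-sided permutation test the 3 ratios had p = 0.2 (γ), 0.2 (α) and 0.5 (β), or 0.3, 0.3 and 0.5 after Benjamini-Hochberg adjustment over the 3. The smallest p that 3 mice against 3 allow is 0.1.

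**Figure D3:**
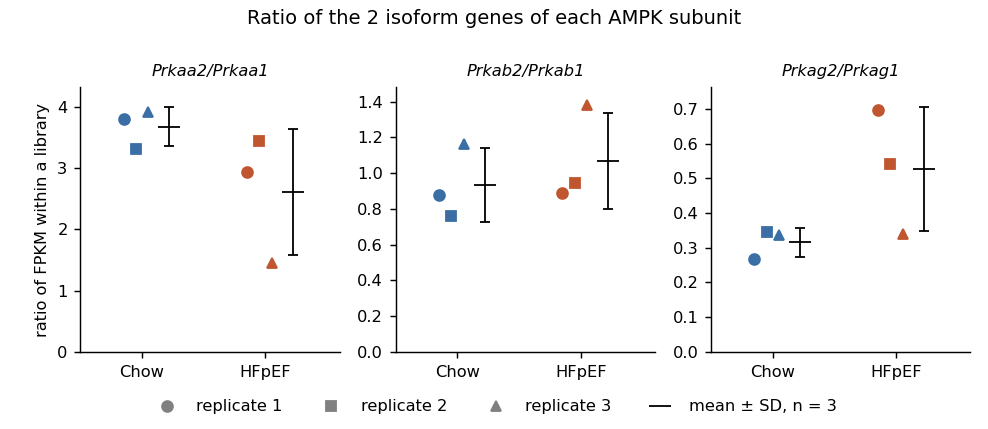
Ratio of the FPKM of the 2 isoform genes of the α, β and γ subunit within each library (vertical axis, linear from 0), with the marker shape giving the replicate and the bar the mean ± SD (n = 3). The γ ratio is at 0.697 and 0.541 in HFpEF replicates 1 and 2 and at 0.341 in replicate 3, inside the Chow range of 0.267 to 0.345, and the α ratio is lowest in HFpEF replicate 3 at 1.45.

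Summed over both isoforms, α transcripts were at 27.7 ± 0.880 FPKM (SD, n = 3) in Chow and 24.8 ± 5.41 in HFpEF. The β sum was 33.7 ± 3.13 in Chow and 26.2 ± 6.17 in HFpEF, and the γ sum 21.5 ± 0.500 in Chow and 22.2 ± 5.49 in HFpEF (SD, n = 3 each). In HFpEF replicate 3 the 3 sums were 18.5, 20.2 and 16.0, each below every Chow library. In HFpEF replicates 1 and 2 the γ sum was 26.5 and 24.1, above every Chow library, and the α sum was 28.4 and 27.4. The β sum was 32.6 and 25.8 there, so that replicate 2 too was below every Chow library.

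Cell type markers differed between the HFpEF libraries as well. Relative to the Chow mean, the median log2 level of the 16 cardiomyocyte markers was −0.58, −0.42 and −1.10 across HFpEF replicates 1 to 3, and that of the 10 fibroblast and matrix genes was 1.07, 1.10 and 3.69. No gene of either list was at 0 in all Chow libraries. The 8 macrophage markers were at 0.16, 0.65 and 1.39, and the 8 endothelial markers at −0.36, −0.36 and −0.20. Of 12 adipocyte genes, of which 10 were tested, 8 were higher and 2 lower in every HFpEF library than in every Chow library. Over all tested genes these were 15.5% and 19.8%. The median log2 level of the adipocyte list was 4.43, 4.57 and 2.86 across HFpEF replicates 1 to 3. Its summed FPKM went the other way, at 505 to 539 in Chow and 501, 468 and 315 across HFpEF replicates 1 to 3. Of the genes of this list, Adipoq, Cfd, Cidec, Lep and Retn were listed at 0 in all Chow libraries. They could therefore not come out lower, and any of them that was tested passed the FPKM minimum only through the HFpEF libraries. None of the 5 red blood cell genes separated the groups. Of 10 skeletal muscle genes, of which 4 were tested, 1 was lower, the mitochondrial creatine kinase Ckmt2. Myh4 and Tnnc2 were listed at 0 in all libraries. Against these, Prkaa2 had −0.04, −0.03 and −0.98, Sirt3 −0.20, −0.30 and −1.04, and Prkag2 1.07, 0.71 and −0.33. The part of cell composition in these differences was not tested. When libraries were scaled to the cardiomyocyte markers, the median of all tested genes shifted by 0.66. All 9 genes then had a positive value, 0 with an adjusted p under 0.05 (limma), against 0.844% of all tested genes, and 5 with an unadjusted p under 0.05, against 53.0%. Such a scaling moves all genes of a library alike, so the values relative to that median (−0.32 for Prkaa2, 0.51 for Prkag2) are near the unscaled ones by construction. With HFpEF replicate 3 also left out, 6 of the 9 had an adjusted p under 0.05, against 53.8% of all tested genes, and 6 an unadjusted one, against 62.4%.

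**Figure D4:**
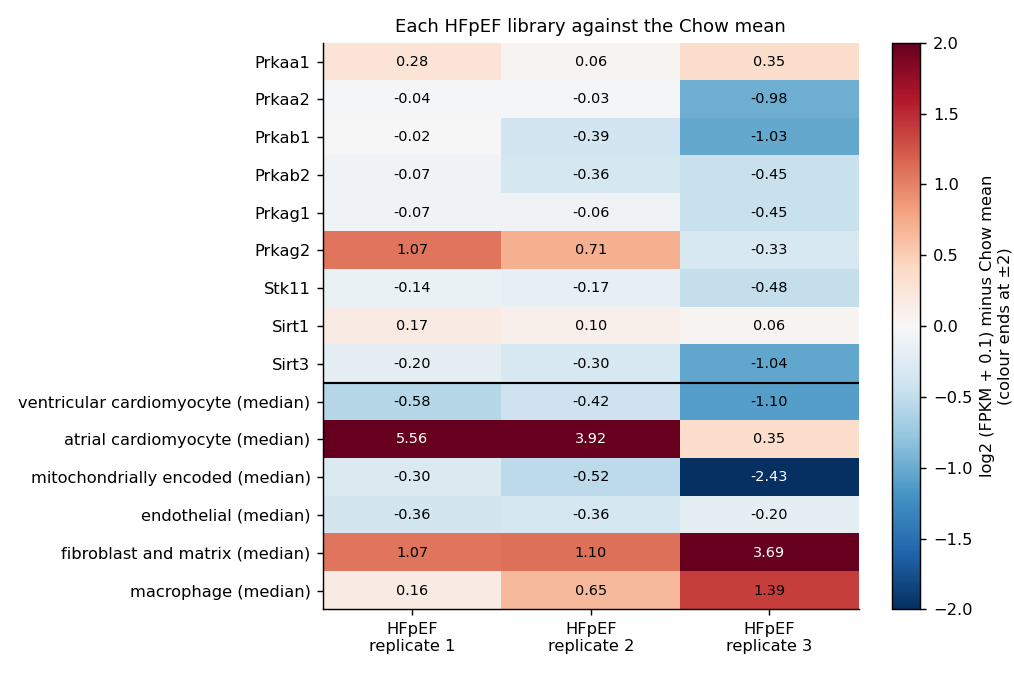
Log2 of FPKM + 0.1 in each HFpEF library minus the Chow mean, for the 9 transcripts (above the line) and as the median of 6 marker lists (below the line), with red for higher and blue for lower. In HFpEF replicate 3, Prkaa2 (−0.98), Prkab1 (−1.03) and Sirt3 (−1.04) are near the cardiomyocyte marker median (−1.10), and the fibroblast and matrix median is 3.69. In HFpEF replicates 1 and 2 the cardiomyocyte marker median is −0.58 and −0.42. There Prkaa2 is at −0.04 and −0.03, Prkab1 at −0.02 and −0.39, and Sirt3 at −0.20 and −0.30. The atrial median is highest in HFpEF replicates 1 and 2 (5.56 and 3.92).

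For each of the 9 genes the closest profiles over the 6 libraries were taken from 10985 other protein-coding genes with a mean FPKM of at least 1, by the root mean square difference of log2 values after centring. The distance is larger for genes that vary more. Those of Prkaa2 were Hist1h2bc, at a difference of 0.03, and Fbxo44, at 0.04. Sirt3 was closest to Lrrc20 and Cds1 (both 0.05), Prkab1 to Pxmp4 (0.06) and Cited2 (0.08), and Prkab2 to Chmp7 and Bsdc1 (both 0.04). Prkag1 was closest to Tex261 and Dda1 (both 0.02), Stk11 to Dph3 and Ubr2 (both 0.02), Sirt1 to Ash1l (0.02) and Derl1 (0.03), and Prkaa1 to Ncs1 and Smc3 (both 0.04). The profile of Prkag2 was the least shared, with Pde9a at 0.15 and Grk3 at 0.15. Grk3, a kinase that desensitizes G protein-coupled receptors, had an FPKM of 2.00, 1.92 and 2.25 in Chow and of 4.09, 3.90 and 1.86 in HFpEF, in replicate order. Grk3 too was above Chow in HFpEF replicates 1 and 2 and not in replicate 3. The atrial genes Myl7 and Myl4 had that pattern, but Dkk3, Nr2f1 and Nr2f2 of the atrial list were above every Chow library in every HFpEF library.

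The surrounding pathway was examined in 5 lists with 84 genes, of which 79 passed the FPKM minimum. With all libraries 0 of the 79 had an adjusted p under 0.05 (limma), and 9 higher and 20 lower had an unadjusted p under 0.05, where 10.2% and 13.1% of all tested genes had one. The sum of 29 dropped to 16 when Chow replicate 1 was left out, and to 15 when Chow replicate 2 was. Without HFpEF replicate 3, 2 were higher and 12 lower at an adjusted p under 0.05, where 2.85% and 5.36% of all tested genes were. The median log2 fold change was −0.16 over the 79 and −0.01 over all tested genes.

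Of the 11 upstream kinases and partners of AMPK, 3 were higher and 1 lower at an unadjusted p under 0.05. Over all tested genes these were 10.2% and 13.1%. The list had a median of −0.11 on the log2 scale. LKB1 works in a complex with a STRAD pseudokinase and the scaffold MO25. The STRAD gene Stradb had −0.54 on the log2 scale (adjusted p = 0.155 from limma) and the MO25 gene Cab39l 0.43 (adjusted p = 0.152). Camkk1 and Camkk2 encode upstream kinases that respond to calcium. Camkk1 had 0.356, 0.456 and 0.375 FPKM in Chow and 0.597, 1.07 and 2.49 in HFpEF (log2 fold change 1.38, adjusted p = 0.177), and Camkk2 1.83, 1.61 and 1.51 in Chow and 2.31, 1.91 and 3.45 in HFpEF (0.57, adjusted p = 0.211). Each was above Chow in all HFpEF libraries and highest in HFpEF replicate 3, the library richest in matrix and macrophage transcripts. The part of these cell types in the Camkk1 and Camkk2 values was not tested. Camkk1 reached the FPKM minimum of 0.5 in no Chow library, so that it entered the test only through the HFpEF libraries, where it was high. Prkag3 (γ3), the form of fast skeletal muscle, was at 0.420 to 0.994 FPKM in all libraries, with 0.69 ± 0.11 (SD, n = 3) in Chow.

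Of the 11 tested AMPK-related kinases, which LKB1 also activates, 1 was higher and 1 lower at an unadjusted p under 0.05. That is near the share over all tested genes, 10.2% higher and 13.1% lower. The list had a median of 0.05 on the log2 scale. Brsk1 was the higher one, at 0.444, 0.415 and 0.442 FPKM in Chow and 1.14, 1.13 and 1.35 in HFpEF. It was near 2.78-fold above Chow with little spread in either group (log2 fold change 1.29, standard error 0.23, adjusted p = 0.0963 from limma). Brsk1 too reached the FPKM minimum in no Chow library and was tested only through the HFpEF libraries, and it rests on as few as 20 reads in a library. Snrk, a kinase of cardiac metabolism, was the lower one, at 25.4 to 28.0 FPKM in Chow and 18.9 to 22.0 in HFpEF (log2 fold change −0.39, adjusted p = 0.124). Sik2 and Sik3, which restrain CREB co-activators, had values of 0.35 and −0.24 (adjusted p = 0.235 and 0.370).

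Of the 20 genes for AMPK substrates, 2 were higher and 5 lower at an unadjusted p under 0.05, beside 10.2% and 13.1% of all tested genes. The list had a median of −0.23 on the log2 scale. The acetyl-CoA carboxylases had values of opposite sign. Acacb, the mitochondrial form whose malonyl-CoA restrains fatty acid import, had 53.6, 52.9 and 53.2 FPKM in Chow and 40.0, 38.5 and 30.1 in HFpEF (log2 fold change −0.57, adjusted p = 0.118 from limma). Acaca, the cytosolic form of lipid synthesis, had 1.06, 0.826 and 0.907 in Chow and 2.05, 2.13 and 1.38 in HFpEF (0.90, adjusted p = 0.119). Neither gene overlapped between groups. Without HFpEF replicate 3 both passed, with Acacb at −0.44 (adjusted p = 0.0164) and Acaca at 1.10 (adjusted p = 0.0266). Mlycd, which breaks malonyl-CoA down, was lower without that library (−0.49, adjusted p = 0.0269) and had −0.72 (adjusted p = 0.131) with it. The autophagy kinase Ulk1 had −0.39 (adjusted p = 0.169). Ppargc1a, the co-activator of mitochondrial biogenesis, had 15.3 to 16.8 FPKM in Chow, 15.0 and 14.1 in HFpEF replicates 1 and 2, and 6.46 in replicate 3.

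Of the other sirtuins, Sirt5, the mitochondrial desuccinylase, was lowest relative to Chow. It had 5.53, 5.40 and 5.40 FPKM in Chow and 3.60, 4.10 and 3.16 in HFpEF (log2 fold change −0.58, standard error 0.13, adjusted p = 0.106 from limma). All HFpEF libraries were far below the Chow libraries, and without HFpEF replicate 3 it passed (−0.49, adjusted p = 0.0405). Sirt2 had −0.35, Sirt4 −0.25, Sirt6 0.02 and Sirt7 0.22, with adjusted p from 0.249 to 0.960. The groups overlapped for each of these 4. In the list of 23 sirtuin and NAD genes, 20 were tested, with a median of −0.12. At an unadjusted p under 0.05, 3 were higher and 4 lower, beside 10.2% and 13.1% of all tested genes.

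The NAD+ supply genes included Nampt, the rate-limiting enzyme of NAD+ salvage. Nampt had 47.1, 45.0 and 45.2 FPKM in Chow and 33.4, 37.1 and 26.2 in HFpEF (log2 fold change −0.52, adjusted p = 0.131 from limma), and passed without HFpEF replicate 3 (−0.38, adjusted p = 0.0346). Nmrk2, the muscle nicotinamide riboside kinase, had 9.28, 15.5 and 16.7 in Chow and 10.4, 7.96 and 7.73 in HFpEF. Its groups overlapped through Chow replicate 1 (−0.63, adjusted p = 0.196). Bst1, an enzyme that consumes NAD+, had 0.907, 0.487 and 1.17 in Chow and 1.51, 2.55 and 2.67 in HFpEF (1.33, adjusted p = 0.123), and Nadk, which makes NADP+, had 0.32 (adjusted p = 0.177).

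The 19 tested partners and substrates of Sirt1 and Sirt3 had 0 higher and 9 lower at an unadjusted p under 0.05, where 13.1% of all tested genes were lower, and a median log2 fold change of −0.51. They are mainly mitochondrial matrix enzymes that the cardiomyocyte expresses strongly. Idh2, the NADP+-dependent isocitrate dehydrogenase, had 681, 743 and 683 FPKM in Chow and 426, 468 and 309 in HFpEF (−0.83, adjusted p = 0.116 from limma). Acss1, the mitochondrial acetyl-CoA synthetase, had −0.79 (adjusted p = 0.119) and the complex I gene Ndufa9 −0.78 (adjusted p = 0.132). Every HFpEF library was below every Chow library for these 3, and replicate 3 was lowest. Rps19bp1, an activator of Sirt1, had −0.41 (adjusted p = 0.119). Without HFpEF replicate 3, 8 of the 19 were lower at an adjusted p under 0.05, where 5.36% of all tested genes were. Idh2, Acss1 and Ndufa9 were among them, and the 8 had an adjusted p from 0.0134 to 0.0373. In the same libraries the median of the list was −0.32, −0.34 and −1.09 against −0.58, −0.42 and −1.10 for the cardiomyocyte markers.

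**Figure D5:**
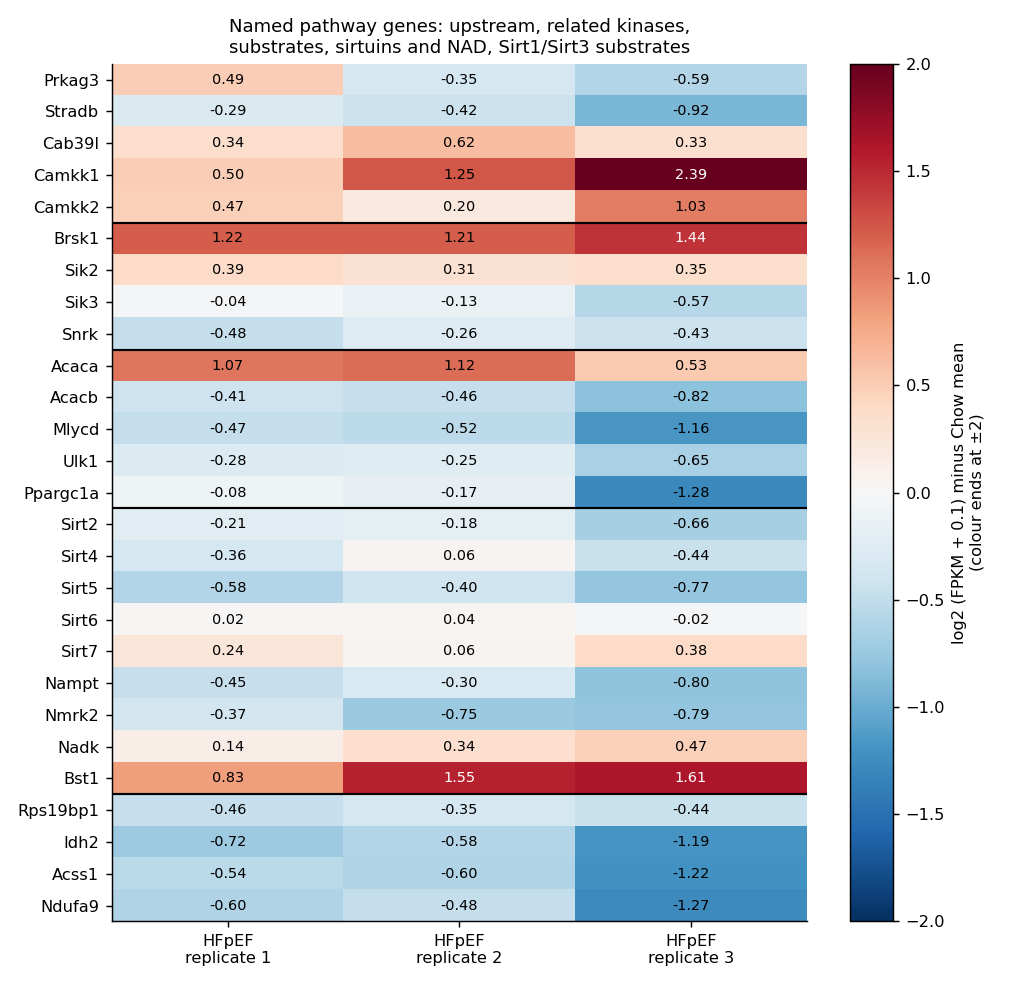
Log2 of FPKM + 0.1 in each HFpEF library minus the Chow mean for 27 genes of the 5 lists, with lines between the lists and red for higher, blue for lower. Brsk1 is above 1.2 and Acacb below −0.4 in all 3 HFpEF libraries, and Idh2, Acss1 and Ndufa9 are at −1.19 to −1.27 in HFpEF replicate 3.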

How the data were processed

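RNA from left ventricular myocardium of 3 Chow and 3 HFpEF mice was sequenced, 1 library per mouse. The authors used HISAT2 for alignment and featureCounts for counting, and the deposited values are FPKM; the submitters' processing notes name GRCm38 and mm10, while the annotation and the FPKM formula are not given in the sources used here. The deposited FPKM were multiplied by the union exon length of GENCODE M21. At a relative tolerance of 1e-06, 96.1% to 96.2% of values above 0 in each library, and 54 of the 54 values of the 9 genes, were then whole multiples of 1 step, which gave the reads. Of 54532 identifiers, 54495 were in GENCODE M21.

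FPKM were divided by median-of-ratios factors (1.00 to 1.01, so that printed FPKM differ slightly from the deposited ones) and fitted as log2(FPKM + 0.1) with limma 3.58.1 in R 4.3.3 (lmFit, eBayes with trend and robust options). A gene had to reach an FPKM of 0.5 in 3 or more libraries, and p-values were adjusted over all 14225 such genes. The authors' DESeq2 was not rerun, since the deposited unit is FPKM; voom on the recovered reads was the alternative. Single genes and ratios were compared by exact permutation. Python 3.11.15 was used for the remainder. The fit was tested on simulated data.

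The 9 genes, the pathway and marker lists and the tests were chosen with earlier results of these data known. In each pathway list the genes named are those with an adjusted p under 0.05, or else the 4 with the smallest p, besides Prkag3, Camkk2, Sirt2, Sirt4 to Sirt7, Nampt, Nmrk2, Ppargc1a, Acacb and Ulk1. Motif letters were chosen after the results were seen. Read numbers cover counting error only. Alternatives were other scalings (none, quantile, cardiomyocyte markers), pseudocounts, filters and variance models, voom, a replicate block, and leaving out each library. With median-of-ratios factors of 1.00 to 1.01, the fit with no scaling is nearly the main fit. The FPKM steps imply a denominator of 19316914 in HFpEF replicate 3, against 15196287 recovered reads. In Chow replicate 1 it was 14239712 against 15574914. The deposited values thus were not scaled by these read totals alone. Same-numbered libraries did not deviate together. Replicates of a group differed by more than sampling noise. The atrial list was added after its values were seen. Marker lists also covered adipocytes, red blood cells and skeletal muscle.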

Additional observations from a re-analysis of the deposited data

How the results depend on the processing

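The number of DEGs among the 9 genes was 0 under all 17 alternatives. At an adjusted p under 0.05 it was 1 (Prkag2) without HFpEF replicate 3 and 6 with that library left out and cardiomyocyte marker scaling (53.8% of all genes were called there), and 0 under the other 15. Leaving out 1 library at a time, the count at an adjusted p ran from 0 to 1, and at an unadjusted p under 0.05 from 0 to 3, where the 3 without HFpEF replicate 1 were Prkab1, Prkab2 and Sirt3. The unadjusted count was 5 with cardiomyocyte marker scaling (53.0% of all genes), 6 with HFpEF replicate 3 also left out (62.4%), 2 with voom and 2 with the replicate block (Prkab1 and Sirt3). For the pathway lists the adjusted count was 1 with cardiomyocyte marker scaling (Acaca), 1 without the trend and robust options (Brsk1, below the FPKM minimum in all Chow libraries), 45 of 79 with HFpEF replicate 3 left out and that scaling (again beside 53.8% of all genes), and 0 to 14 leaving out 1 library. Their unadjusted count was 44 and 56 under the 2 fits with cardiomyocyte marker scaling, and 15 to 33 leaving out 1 library.

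Scaling to the cardiomyocyte markers shifted the median of all genes by 0.66, or by 0.49 without HFpEF replicate 3. Log2 fold changes then turned positive, in the order of these fits, for Prkaa2 (0.34 and 0.48), Prkab1 (0.21 and 0.31), Prkab2 (0.40 and 0.30), Prkag1 (0.50 and 0.45), Stk11 (0.43 and 0.36) and Sirt3 (0.16 and 0.25). The isoform ratio differences ran from −0.83 to −0.21 for α, −0.01 to 0.36 for β and 0.45 to 0.97 for γ leaving out 1 library. The correlation of deviations between same-numbered libraries was −0.04, −0.07 and −0.06, so the numbers are not taken as pairs, and paired differences gave exact sign-flip p of 0.5, 0.25 and 0.25 for α, β and γ. At 239 to 2876 reads per gene and library, counting errors are 6.47% to 1.86%.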

Other observations

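Tbc1d1, chosen after its values were seen, encodes an AMPK substrate of glucose transporter traffic and had 2.61, 2.44 and 4.22 FPKM across Chow replicates 1 to 3, and 14.1, 10.1 and 3.75 across HFpEF replicates 1 to 3. Like Prkag2, it was above every Chow library in HFpEF replicates 1 and 2 and not in replicate 3, and its highest Chow value was in replicate 3. The atrial genes Myl7 (3.79, 0.288 and 236 FPKM in Chow, 969, 2064 and 8.56 in HFpEF) and Myl4 (0.377, 0.238 and 49.8 in Chow, 212, 377 and 2.57 in HFpEF) were high in those same 3 libraries, and their part in the Tbc1d1 difference was not tested. Its log2 fold change was 1.41 (adjusted p = 0.170 from limma), and 1.96 (adjusted p = 0.0197) without HFpEF replicate 3. With Acaca it was 1 of the 2 pathway genes called higher in that fit. Whether the difference among the HFpEF hearts is larger than that between mice in general was not tested.

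The antisense neighbours of the γ subunit genes were near the limit of detection. Prkag2os1 had 0, 2 and 1 reads in Chow and 9, 8 and 16 in HFpEF, and Prkag2os2 had 1, 2 and 9 in Chow and 10, 14 and 17 in HFpEF, in replicate order. Both were highest in HFpEF replicate 3, where Prkag2 itself had its lowest FPKM, 4.07, though its 512 reads were above the 409 to 433 of Chow. By reads, both were also above every Chow library in HFpEF replicates 1 and 2, where Prkag2 was high. B130046B21Rik, which shares exon bases with Prkag1, had 2 to 10 reads in every library.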
